A study of Rattus norvegicus with 9 samples.

Results

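The genes of glycolysis and glycogen breakdown were followed in RNA-seq libraries from the pubococcygeus, a striated muscle of the rat pelvic floor. The members were set by name: Hk2, Pfkm, Aldoa, Gapdh, Pgk1, Pgam2, Eno3, Pkm, Ldha and Pygm. Of these 10 symbols, 6 matched a row among the 30518 gene rows of the tables (Hk2, Pfkm, Pgk1, Pgam2, Eno3 and Pygm), 1 row each. The symbols Aldoa, Gapdh, Pkm and Ldha matched no row used here, and those members are not analysed here under their own names. All libraries came from female Sprague-Dawley rats, 3 libraries per group, in a study of 24 rats with 8 per group. The labels state neither the rats' age nor whether a library held muscle of 1 rat or of several.

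Stimulated rats first received a model of stress urinary incontinence (SUI) and, from 1 week later, transvaginal pelvic floor electrical stimulation (PFES). The current was a monophasic square wave of 20 mA, 50 Hz and 200 µs pulses, given for 30 minutes a day on 5 days a week over 2 weeks. SUI rats received the same model and no further treatment. The model joined removal of both ovaries to vaginal distension, in which an 8-Fr Foley catheter balloon, holding 3 mL of saline, bore a hanging weight of 120 g during 4 hours. Both groups therefore lacked ovaries, and no group had the removal or the distension alone. Blank rats had no surgery and no treatment.

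In working muscle, glycogen phosphorylase (the product of Pygm in muscle) releases glucose units from stored glycogen, while hexokinase phosphorylates glucose taken up from blood. Phosphofructokinase then commits the sugar to glycolysis, and a chain of enzymes that includes phosphoglycerate kinase, phosphoglycerate mutase and enolase turns it into pyruvate and yields ATP. Fast fibres are known for high levels of these enzymes, and several steps use a form of the enzyme that is typical of muscle: Pfkm, Pgam2, Eno3 and Pygm. Hk2 encodes the hexokinase form known for its response to insulin and contraction, and Pgk1 encodes the phosphoglycerate kinase of nearly all body cells.

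The sequences just before the starts of 4 members, whose levels varied together over the libraries, are shown. Any part of these sequences in that shared variation was not tested. They are the 250 bases before the gene start in RefSeq, build GRCr8, on the gene's own strand. Capitals mark every match of ACGTG or GCGTG, the core that hypoxia-inducible factors are known to bind, and of CAGCTG, an E-box of the kind known to bind myogenic factors, on either strand (CACGT and CACGC are the other strand of the cores, and ACGTG also lies within the E-box CACGTG).
Pfkm, chr7:131113849-131114098, + strand: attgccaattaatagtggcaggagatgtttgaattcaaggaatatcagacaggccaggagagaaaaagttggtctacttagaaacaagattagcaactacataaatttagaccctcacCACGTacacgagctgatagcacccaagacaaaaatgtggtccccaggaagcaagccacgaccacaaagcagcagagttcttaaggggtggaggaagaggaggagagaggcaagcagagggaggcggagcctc
Pgam2, chr14:84897875-84898124, - strand: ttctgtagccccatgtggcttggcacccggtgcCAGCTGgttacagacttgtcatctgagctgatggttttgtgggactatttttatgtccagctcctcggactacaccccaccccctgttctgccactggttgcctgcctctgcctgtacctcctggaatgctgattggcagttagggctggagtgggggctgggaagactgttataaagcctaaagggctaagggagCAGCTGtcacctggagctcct
Eno3, chr10:55868936-55869185, + strand: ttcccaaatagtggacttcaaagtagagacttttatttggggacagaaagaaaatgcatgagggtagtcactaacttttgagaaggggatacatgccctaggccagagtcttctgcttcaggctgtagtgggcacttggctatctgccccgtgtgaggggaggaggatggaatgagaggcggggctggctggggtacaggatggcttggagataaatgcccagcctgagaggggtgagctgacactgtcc
Pygm, chr1:213119555-213119804, + strand: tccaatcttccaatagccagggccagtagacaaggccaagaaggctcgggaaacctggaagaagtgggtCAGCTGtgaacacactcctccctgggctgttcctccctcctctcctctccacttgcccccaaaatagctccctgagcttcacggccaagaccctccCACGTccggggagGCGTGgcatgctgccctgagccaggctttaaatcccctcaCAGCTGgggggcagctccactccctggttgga
Of the 6 members, 5 matched the promoter table, and Pgk1 is named only. The Pgam2 window held CAGCTG at 2 places, starting at -217 and -21 from the gene start, and the Pygm window held it at -181 and -32. Pygm also held ACGTG at -85 and GCGTG at -72 (ACGTG on the opposite strand, GCGTG on the gene's own), and Pfkm held ACGTG at -132 on the opposite strand. The Eno3 window held none of these letters, and neither did that of Hk2. Over all 33469 promoters of the table, windows of the same length held ACGTG in 16.6%, GCGTG in 25.9% and CAGCTG in 12.0%. A match is a run of letters and was not tested as a binding site.

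The libraries held 50833480 to 147650284 counts, with a median of 110699836. Values are given as counts per 1000000 (CPM) of library totals scaled by the trimmed mean of M-values (TMM), or as the deposited FPKM where levels of different genes are set side by side, since FPKM is per gene length. Blank replicate 1 stood apart, with 32.9% of its counts from the mitochondrial genome against 13.4 to 17.7% in the other libraries, and a median correlation of 0.92 with the rest. SUI replicate 1 came next at 0.949, and the other 7 libraries lay at 0.954 or above. Fast fibre genes (9 of 13 named genes matched) summed to 98138 to 119028 CPM in stimulated, 66703 to 116868 CPM in SUI and 93037 to 166210 CPM in blank libraries, high in every library. Of 8 heart markers, Nppa and Nppb were at 0 FPKM in all 9, and Ryr2, Mybpc3 and Tnni3 reached at most 0.0134, 0.0458 and 0.305 FPKM, whereas Myh6 (28.1 to 75.2 FPKM), Actc1 (11.7 to 111.8 FPKM) and Tnnt2 (1.45 to 5.37 FPKM) were detected in every library. The rows of 10 connective tissue cell markers summed to 975 to 3464 CPM in stimulated, 625 to 926 CPM in SUI and 1354 to 1644 CPM in blank libraries. In such bulk samples, fewer cells of a type and less RNA per cell cannot be told apart.

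Glycolytic and glycogenolytic genes were among the most abundant rows. By mean FPKM over the 9 libraries, Eno3 ranked 26 of 30518 rows at 3175 FPKM, Pygm ranked 27 at 2735 FPKM, and Pgam2 ranked 32 at 1899 FPKM. Pfkm followed at rank 46 with 938 FPKM and Pgk1 at rank 74 with 542 FPKM. Hk2 stood far below them at rank 2597 with 12.4 FPKM. The neighbours Eno3 and Pygm overlapped over the libraries, 1126 to 4358 FPKM against 1249 to 3373 FPKM, as did Pfkm (539 to 1096 FPKM) and Pgk1 (265 to 675 FPKM). Hk2, at 7.54 to 18.7 FPKM, did not reach the lowest library of any other member. Together the 6 members took 2.28 ± 0.06% of the deposited counts in stimulated, 2.33 ± 0.33% in SUI and 1.80 ± 0.72% in blank libraries (SD, n = 3 each). On the CPM scale their sum was 23184 ± 1796 in stimulated, 22062 ± 6089 in SUI and 18289 ± 4593 in blank libraries, and the 3 groups overlapped.

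Hk2 phosphorylates glucose on entry into the fibre. It had 58.0, 53.1 and 83.2 CPM in stimulated libraries, 25.4, 54.8 and 54.3 CPM in SUI libraries and 60.4, 44.6 and 58.9 CPM in blank libraries. Stimulated replicate 3 was the highest library and SUI replicate 1 the lowest, and all 3 groups overlapped.

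Pfkm encodes the muscle subunit of phosphofructokinase and varied least of the members. It had 3444, 2871 and 3350 CPM in stimulated libraries, 2596, 3750 and 3741 CPM in SUI libraries and 2549, 3461 and 3358 CPM in blank libraries. The highest library held 1.47 times the CPM of the lowest, and the groups overlapped.

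Pgk1 encodes the enzyme of the first ATP-yielding step. It had 1251, 1206 and 1053 CPM in stimulated libraries, 694, 1144 and 1311 CPM in SUI libraries and 698, 1009 and 976 CPM in blank libraries. Every stimulated library lay above every blank one in CPM, but not in FPKM, where the lowest stimulated value of 537 lay under the highest blank value of 555.

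Pgam2 encodes the muscle phosphoglycerate mutase, the step after Pgk1. It had 2433, 2535 and 2176 CPM in stimulated libraries, 962, 2010 and 2608 CPM in SUI libraries and 1130, 1841 and 1559 CPM in blank libraries. Stimulated libraries lay above all blank ones, also in FPKM (2113 to 2704 against 819 to 1932), while the SUI libraries spread from below the blank group to above the stimulated one.

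Eno3 encodes muscle enolase, the step that follows. It had 6886, 6649 and 6500 CPM in stimulated libraries, 3543, 5704 and 7956 CPM in SUI libraries and 2708, 5369 and 5497 CPM in blank libraries. The stimulated libraries again lay above all blank ones, in FPKM too (3440 to 4004 against 1126 to 3202), and lay close together, with an SD of 195 CPM against 2207 CPM in SUI libraries.

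Pygm encodes the glycogen phosphorylase of muscle. It had 10909, 8074 and 10022 CPM in stimulated libraries, 7679, 10500 and 11856 CPM in SUI libraries and 5846, 9390 and 9312 CPM in blank libraries. Its groups overlapped in each pair.

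**Figure D1:**
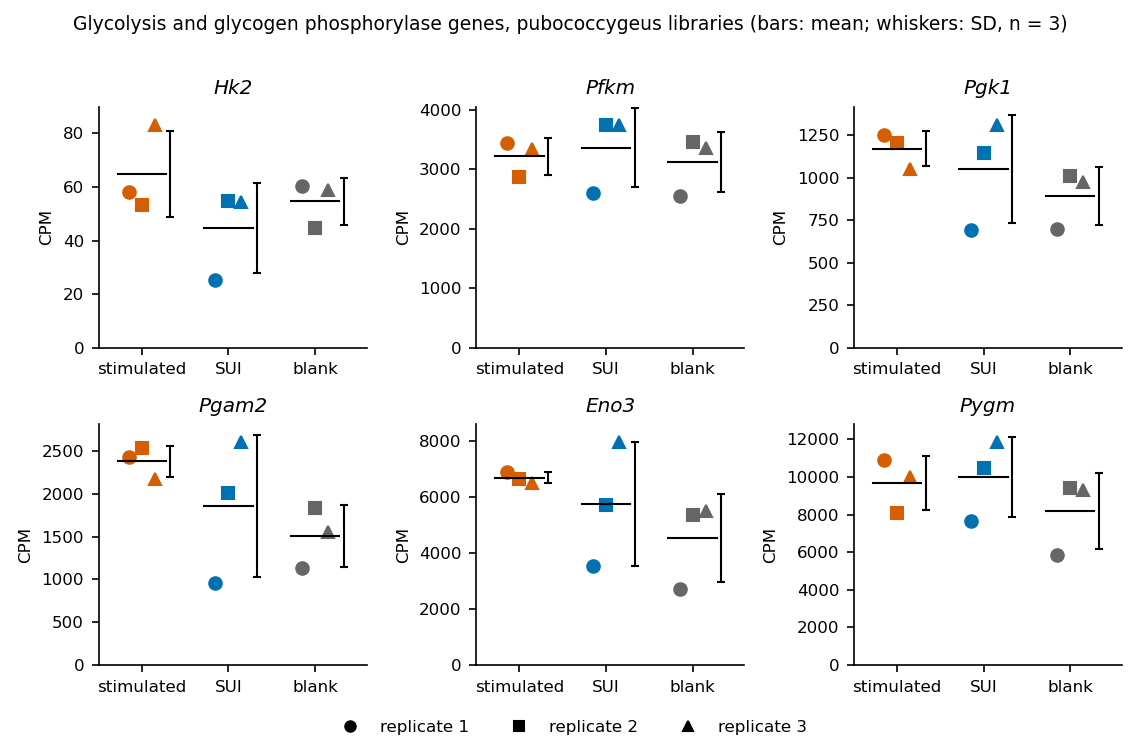
CPM (linear axis from 0) of the 6 members in each library, by group; bars are group means and whiskers are SD (n = 3). Replicate 1 of the SUI group is its lowest library in every panel, and replicate 1 of the blank group is its lowest in all but Hk2.

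In the SUI and blank groups the members dipped in the same library. SUI replicate 1 was the lowest SUI library for 6 of 6 members, as it was for 39.1% of all 16256 genes tested. Blank replicate 1 was the lowest blank library for 5 of 6 members, against 48.9% of all genes, and Hk2 was the exception. In the stimulated group the lowest library was replicate 2 for 3 members and replicate 3 for the other 3. As a mean over the members of log2 CPM minus the 9-library mean, SUI replicate 1 stood at -0.61 and blank replicate 1 at -0.50, while the other 7 libraries ran between -0.01 and 0.35. In SUI replicate 1 the fast fibre genes (-0.73), the slow fibre genes (-0.93) and the creatine and adenylate kinases (-0.69) were low beside them. In blank replicate 1 the fast fibre genes (0.47) and slow fibre genes (0.42) stood above their means and the mitochondrial genome transcripts far above (1.56). All these deviations rest on TMM factors of 1.30 for SUI replicate 1 and 0.74 for blank replicate 1, against 0.89 to 1.09 elsewhere. As a share of deposited counts the members took 2.01% in SUI replicate 1, against 2.32 and 2.66% in the other SUI libraries. In blank replicate 1 they took 0.97%, against 2.25 and 2.18% in the other blank libraries, a deeper dip. The part of these library differences in the group comparisons was not tested. Fitted values printed for the members and for the pathway and hypoxia lists are also given without both libraries. So are those printed for other genes where they moved by over 1.5 times.

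**Figure D2:**
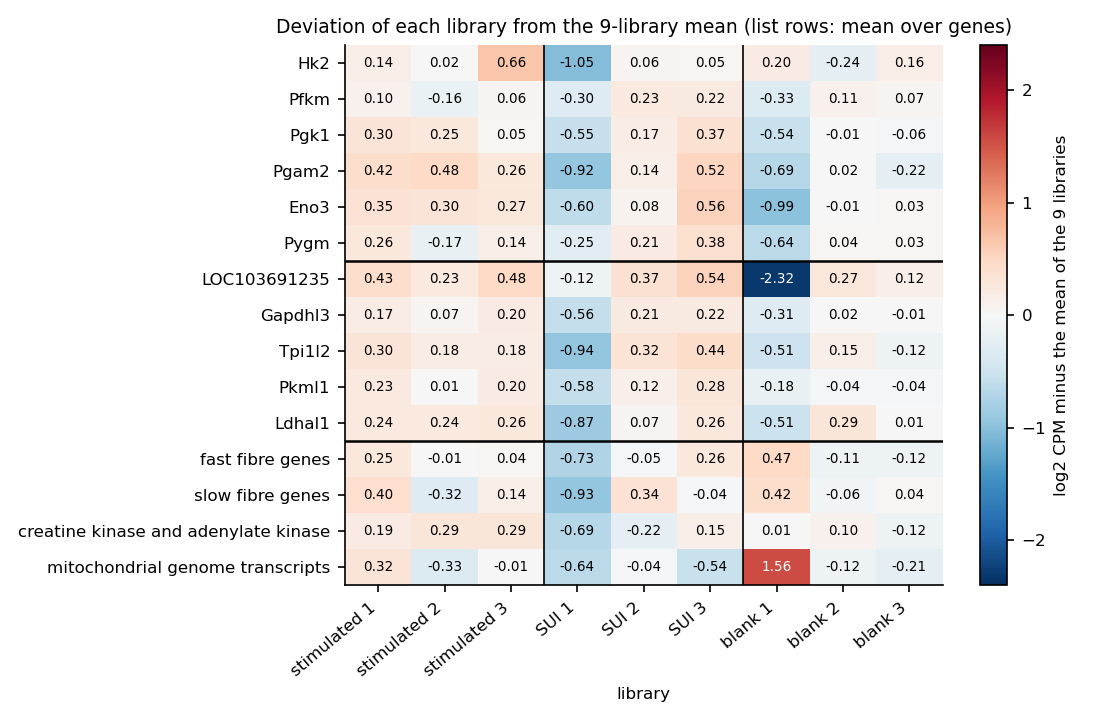
Colour and printed values give log2 CPM minus the mean of the 9 libraries, for the members (top block), for rows at the places of symbols that matched no row (middle block) and as means over 4 gene lists (bottom block); columns are libraries. SUI replicate 1 lies below 0 in every line, whereas blank replicate 1 lies below 0 for every enzyme row but Hk2 and above 0 for the 4 lists.

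Stimulated against SUI muscle compares rats that all had the model, and so addresses what the stimulation treatment added. The SUI group is labelled as having no additional treatment, so the current and its transvaginal procedure cannot be told apart. No member passed the test. In edgeR's quasi-likelihood test, adjusted by Benjamini-Hochberg over 16256 genes, 0 of 6 members passed 0.05, beside 2 of all genes (0.0123%, 0.00615% in each direction), and 0 members had an unadjusted p under 0.05, beside 8% of all genes. DESeq2, run as an alternative, called 208 genes (1.28%) and 0 of 6 members. The point estimates of 4 members were above 0 and their median was 0.19 on the log2 scale, beside 0.03 for all genes. Hk2 had the highest estimate, a log2 fold change of 0.53 ± 0.31 (SE), with a 95% interval from 0.89-fold to 2.34-fold (adjusted p = 0.725, edgeR). Pgam2 stood at 0.36 ± 0.35, Eno3 at 0.22 ± 0.35 and Pgk1 at 0.16 ± 0.28. Pfkm at -0.06 ± 0.24 and Pygm at -0.05 ± 0.28 lay nearest to 0, and the interval of Pfkm ran from 0.66-fold to 1.39-fold. All 6 members overlapped between the groups, where 9.53% of all genes were higher and 9.28% lower without overlap. Without SUI replicate 1 and blank replicate 1, 2 of 6 estimates were above 0 and the members' median was -0.05, with Hk2 at 0.25, Pgam2 at 0.05, Eno3 at -0.03, Pgk1 at -0.07, Pygm at -0.21 and Pfkm at -0.22. Without SUI replicate 1 alone the median was -0.04.

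Stimulated against blank muscle sets treated model rats beside untouched ones, and here the pattern was most even. All 6 estimates were above 0, with a median log2 fold change of 0.32 beside 0.04 for all genes, of which 54.3% were above 0. By the same edgeR test 0 of 6 members passed the adjusted threshold (1 of all genes, 0.00615%) and 0 had an unadjusted p under 0.05 (3.77% of all genes). DESeq2 called 21 genes (0.13%) and 0 of 6 members. The groups of Pgk1, Pgam2 and Eno3, which catalyse the lower part of glycolysis, did not overlap in CPM and were higher in stimulated muscle. These were 3 of 6 members, where 7.9% of all genes were higher and 4.72% lower without overlap. Pgam2 averaged 2381 ± 185 CPM in stimulated and 1510 ± 358 CPM in blank muscle (SD, n = 3), a log2 fold change of 0.66 ± 0.35 (SE) with an interval from 0.91-fold to 2.72-fold (adjusted p = 0.898, edgeR). Eno3 averaged 6679 ± 195 CPM in stimulated and 4525 ± 1575 CPM in blank muscle, a log2 fold change of 0.56 ± 0.36 with an interval from 0.85-fold to 2.56-fold. Pgk1 stood at 0.39 ± 0.28, Hk2 at 0.25 ± 0.31, Pygm at 0.24 ± 0.28 and Pfkm at 0.05 ± 0.24. Without blank replicate 1 and SUI replicate 1 the members' median was 0.27, with Pgam2 at 0.49, Hk2 at 0.32, Eno3 at 0.30, Pgk1 at 0.24, Pygm at 0.05 and Pfkm at -0.08.

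SUI against blank muscle asks what the model alone did after its weeks without treatment. Of the members, 0 of 6 passed the adjusted threshold in edgeR, beside 0 of all genes (0%), and 0 had an unadjusted p under 0.05, beside 1329 genes or 8.18%. DESeq2 called 176 genes (1.09%) and 0 of 6 members. All 6 members overlapped between the groups, where 7.34% of all genes were higher and 7.77% lower without overlap. The estimates of 5 members were above 0, with a median of 0.26 beside 0.01 for all genes: Eno3 stood at 0.34 ± 0.35, Pgam2 at 0.30 ± 0.35, Pygm at 0.29 ± 0.28, Pgk1 at 0.23 ± 0.28 and Pfkm at 0.11 ± 0.24. Hk2 alone was below 0, at -0.29 ± 0.31 with an interval from 0.51-fold to 1.33-fold (adjusted p = 0.775, edgeR). Without blank replicate 1 and SUI replicate 1 all 6 estimates were above 0 with a median of 0.28, Pgam2 at 0.44, Eno3 at 0.33, Pgk1 at 0.31, Pygm at 0.26, Pfkm at 0.14 and Hk2 at 0.08. Single libraries moved these estimates far: leaving out 1 at a time, Eno3 ran from 0.03 to 0.58, Pgam2 from -0.02 to 0.60 and Pgk1 from 0.04 to 0.44, each lowest without SUI replicate 3 and highest without SUI replicate 1. Pygm ran from 0.11 without blank replicate 1 to 0.44 without SUI replicate 1. The comparisons share groups of libraries, so their estimates are not independent of each other.

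**Figure D3:**
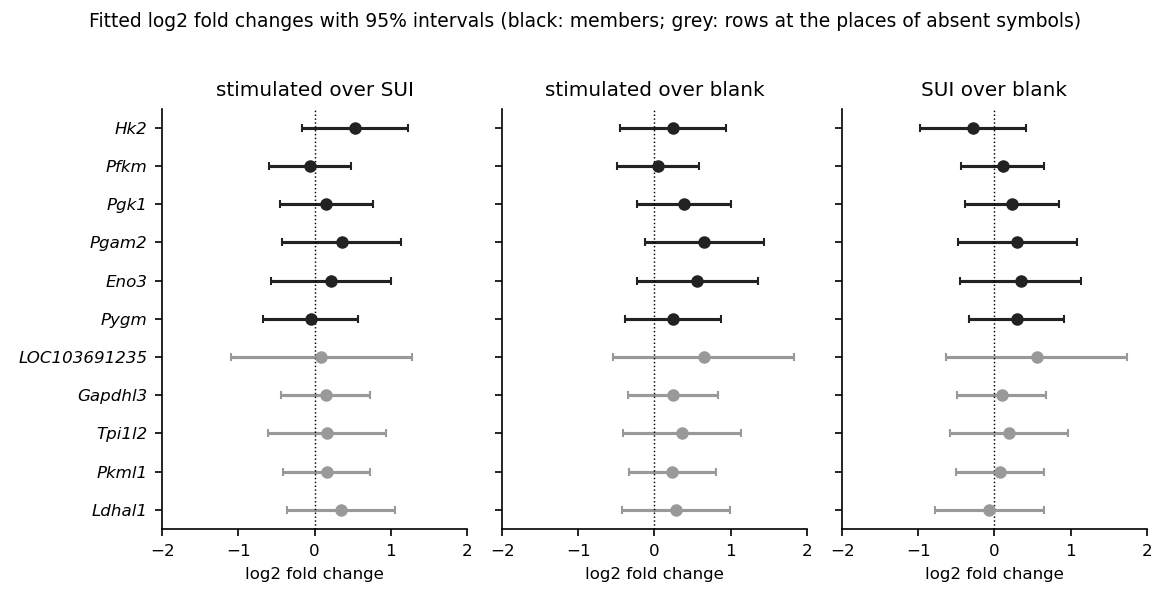
Fitted log2 fold changes (points) with 95% intervals (lines) in the 3 comparisons, for the members in black and for rows at the places of symbols that matched no row in grey; the dotted line is no difference. Every interval crosses 0, and in stimulated over blank muscle all points lie right of it.

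Rows at the places of the missing symbols gave a second view of the pathway. In RefSeq's GRCr8 annotation Gapdh lies between Iffo1 and Ncapd2. The highest-count row between these neighbours in the tables carries the symbol Gapdhl3 (chr4:157962343-157966174 in mRatBN7.2, - strand). By the same reading, Pkml1 (chr8:60057402-60079599, + strand) stood between Parp6 and Gramd2a, the place of Pkm, and Ldhal1 (chr1:97366021-97381243, + strand) between Gtf2h1 and Ldhc, the place of Ldha. LOC103691235 (chr1:181402275-181417714, - strand) stood between Ppp4c and Tlcd3b, the place of Aldoa, and Tpi1l2 (chr4:157615386-157619050, - strand) between Spsb2 and Usp5, the place of Tpi1. RefSeq gives the genes named Gapdhl3, Pkml1, Ldhal1 and Tpi1l2 on other chromosomes, so the identity of these rows is uncertain. Their reads may also be shared with near-identical copies. They are given under the tables' symbols and are not counted among the members.

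These 5 rows ranked with the members by level. LOC103691235 stood at 7016 FPKM (rank 15), Gapdhl3 at 4184 FPKM (rank 21), Ldhal1 at 1067 FPKM (rank 42), Tpi1l2 at 1066 FPKM (rank 43) and Pkml1 at 994 FPKM (rank 45). SUI replicate 1 and blank replicate 1 were each the lowest of their group for 5 of 5. The widest gap was in LOC103691235, which had 14157, 12311 and 14639 CPM in stimulated libraries, 9656, 13590 and 15341 CPM in SUI libraries and 2112, 12681 and 11450 CPM in blank libraries. Its blank replicate 1 lay far under every other library. A second row with the same Ensembl gene ID and symbol had 1750 CPM there, against 1276 and 3245 CPM in the other blank libraries. None of the 5 passed the test in any comparison. Gapdhl3 averaged 9690 ± 444 CPM in stimulated, 8762 ± 2454 CPM in SUI and 8209 ± 995 CPM in blank muscle. In stimulated against blank muscle Gapdhl3, Pkml1 and Tpi1l2 did not overlap in CPM and were higher, as were 7.9% of all genes. In FPKM only Pkml1 stayed apart, by a narrow gap, with a lowest stimulated value of 1022 against a highest blank value of 1015 FPKM. The lowest stimulated value of Gapdhl3 was 4184 FPKM against a highest blank value of 4483 FPKM, and that of Tpi1l2 1123 against 1204 FPKM. The log2 fold changes of Gapdhl3, Pkml1 and Tpi1l2 there were 0.24 ± 0.26, 0.23 ± 0.26 and 0.36 ± 0.35. Without blank replicate 1 they were 0.12, 0.17 and 0.19, and without blank replicate 1 and SUI replicate 1 0.14, 0.19 and 0.20.

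The muscle forms made up nearly all of each enzyme family with a member row. Of the FPKM of its family, Pfkm held 99.3 to 99.7% over the 9 libraries, Pgam2 held 98.8 to 99.7%, Eno3 held 97.4 to 98.3%, and Pygm was at 99.9% or above. Pgk2, the form of the testis, was listed at 0 in all libraries. Eno1, the enolase of most other tissues, was the most abundant of the other forms at 66.3 FPKM, and in stimulated over blank muscle its log2 fold change was 0.54 ± 0.26 (adjusted p = 0.898, edgeR), with no overlap of the groups, and 0.33 without blank replicate 1 and SUI replicate 1. Pgam1, the broadly expressed mutase, stood at 9.003 FPKM and had a log2 fold change of -0.44 ± 0.24 in stimulated over SUI muscle (adjusted p = 0.703, edgeR). Hk2 shared its family most: it held 87.9, 83.1 and 91.1% in stimulated, 68.4, 85.9 and 88.5% in SUI and 83.2, 85.1 and 87.9% in blank libraries, with nearly all the rest from Hk1. SUI replicate 1 stood lowest, with 3.34 FPKM of Hk1, the highest of the 9 libraries, beside its 7.54 FPKM of Hk2.

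**Figure D4:**
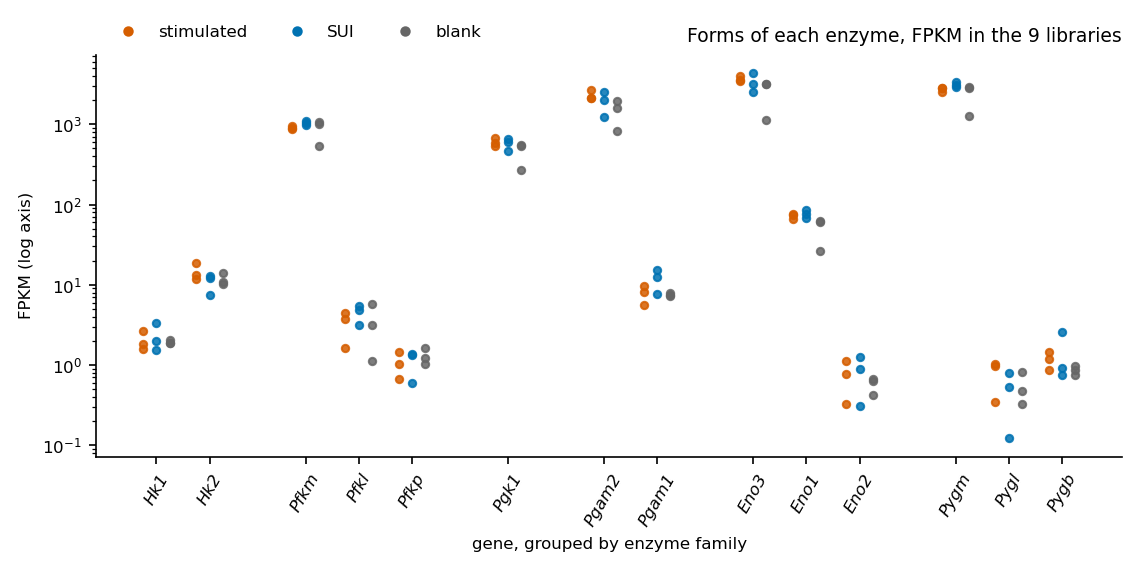
FPKM (log axis) of each form in the 6 enzyme families, 1 point per library coloured by group; forms with a mean of 0.05 FPKM or less are left out. In 4 families the muscle form lies more than 10 times above the next form, and in the hexokinases Hk2 and Hk1 lie closest.

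Ratios within a library, which scaling between libraries cannot move, were chosen after the values were seen and are given without a test. Pgam2 over Pfkm in FPKM was 2.42, 3.03 and 2.23 in stimulated libraries, 1.27, 1.85 and 2.39 in SUI libraries and 1.52, 1.83 and 1.60 in blank libraries. Every stimulated library lay above every blank one, and the SUI libraries spread over both. Eno3 over Pfkm showed the same order of group means, 4.03 ± 0.40 in stimulated, 3.23 ± 0.80 in SUI and 2.76 ± 0.59 in blank muscle, as did Pgk1 over Pfkm with 0.66 ± 0.09 in stimulated, 0.55 ± 0.08 in SUI and 0.51 ± 0.02 in blank muscle (SD, n = 3 each). Pygm over Pfkm, the entry from glycogen against the committed step, was 3.02 ± 0.18 in stimulated, 3.01 ± 0.18 in SUI and 2.63 ± 0.27 in blank muscle. Without SUI replicate 1 and blank replicate 1 the SUI and blank means were 3.53 and 3.09 for Eno3, 0.59 and 0.53 for Pgk1, and 3.03 and 2.78 for Pygm.

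**Figure D5:**
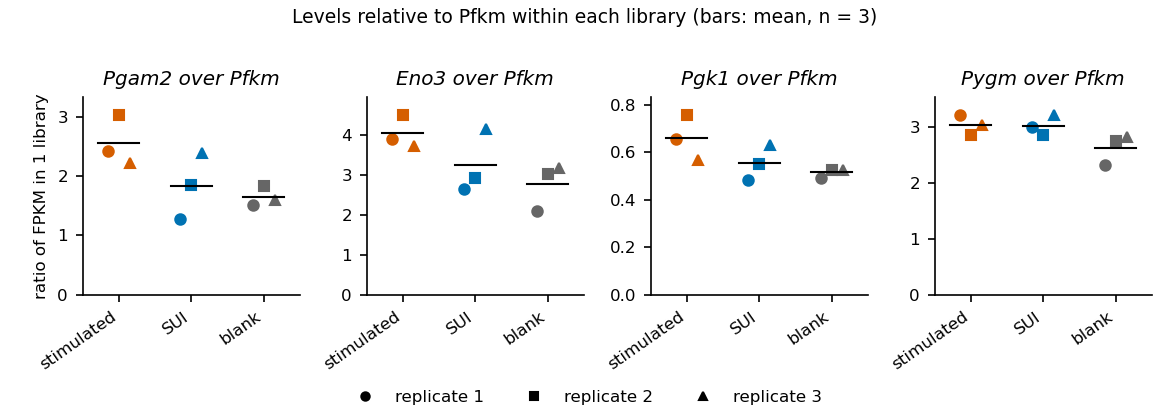
Ratios of FPKM to that of Pfkm within each library (linear axes from 0), by group; bars are means (n = 3). For Pgam2, Eno3 and Pgk1 all stimulated libraries lie above all blank ones, and SUI replicate 1 is the lowest SUI library.

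The rest of the pathway was read from 6 lists of 97 genes: other glycolytic enzymes, glycogen breakdown, glycogen synthesis and scaffolds, glucose and lactate transport, flux switches, and pyruvate entry with the glycerophosphate shuttle. Of these, 89 were tested and 0 passed the adjusted edgeR threshold in any comparison. In stimulated against SUI muscle 61 of 89 estimates were above 0 (median 0.14), in stimulated against blank muscle 58 (median 0.13) and in SUI against blank muscle 42 (median -0.03). Of all genes tested, 52.6, 54.3 and 50.8% were above 0 in these comparisons, with medians of 0.03, 0.04 and 0.01. Among lists, glucose and lactate transport had 11 of 12 estimates above 0 in stimulated against SUI muscle (median 0.20), and flux switches had 11 of 14 (median 0.39). Without SUI replicate 1 and blank replicate 1 the 89 genes had 51 estimates above 0 in stimulated against SUI (median 0.04), 53 in stimulated against blank (0.08) and 52 in SUI against blank muscle (0.04), with 9 for glucose and lactate transport (0.27) and 10 for flux switches (0.08) in stimulated against SUI muscle. In that comparison, over all libraries, 10 of 10 connective tissue cell markers were above 0, with a median of 1.52, and their part in these values was not tested.

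The flux switches held the widest values of the pathway. Pdp1 encodes a phosphatase that activates pyruvate dehydrogenase and had 49.5, 60.1 and 55.8 CPM in stimulated libraries against 31.3, 21.9 and 37.1 CPM in SUI libraries. These groups did not overlap, and the log2 fold change was 0.87 ± 0.26 (adjusted p = 0.48, edgeR). Its counterpart Pdk4, a kinase that inactivates pyruvate dehydrogenase, had 1421, 338 and 784 CPM in stimulated libraries, 2348, 1146 and 1527 CPM in SUI libraries and 891, 690 and 884 CPM in blank libraries. SUI libraries lay above all blank ones, with a log2 fold change of 1.03 ± 0.47 (adjusted p = 0.607, edgeR), and the stimulated ones spread across both. Fbp2 encodes the muscle fructose bisphosphatase, which runs against phosphofructokinase. It had 57.7, 74.5 and 74.1 CPM in stimulated libraries, 27.3, 90.0 and 47.2 CPM in SUI libraries and 60.2, 304 and 288 CPM in blank libraries. Blank replicates 2 and 3 lay above every other library and blank replicate 1 lay among them. Its log2 fold change in SUI over blank muscle was -1.99 ± 0.59 (adjusted p = 0.504, edgeR), and DESeq2 gave an adjusted p of 0.0381, the lowest of 20 alternatives, which ran up to 0.774.

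Of the 89 genes, 3 (3.37%) had an unadjusted p under 0.05 in stimulated over SUI muscle (8% of all genes), 4 (4.49%) in stimulated over blank muscle (3.77%) and 3 (3.37%) in SUI over blank muscle (8.18%), shares below or near those of all genes. Ugp2, which makes the UDP-glucose used for glycogen, had 349, 233 and 272 CPM in stimulated libraries, 544, 382 and 387 CPM in SUI libraries and 569, 358 and 489 CPM in blank libraries. The stimulated libraries lay below all others, with log2 fold changes of -0.62 ± 0.26 over SUI and -0.73 ± 0.26 over blank muscle (adjusted p = 0.593 and 0.898, edgeR). Stbd1, a protein that tethers glycogen to membranes, had 187, 135 and 115 CPM in stimulated libraries against 92.9, 83.5 and 74.9 CPM in blank libraries, a log2 fold change of 0.80 ± 0.32 (adjusted p = 0.898, edgeR). Slc2a3, a glucose transporter, had 9.85, 5.31 and 4.88 CPM in stimulated libraries against 1.99, 2.93 and 4.46 CPM in blank libraries. These groups were apart by a narrow gap. Slc16a7 in SUI over blank muscle (log2 fold change -1.18 ± 0.52, adjusted p = 0.607, edgeR) also had an unadjusted p under 0.05. So did Slc2a10 in stimulated over SUI muscle (1.67 ± 0.60, adjusted p = 0.521, edgeR). Slc16a7 and Slc2a10 were named after their values were seen, and each averaged under 1 CPM, a low level. Fbp2 in stimulated over blank muscle (-1.66 ± 0.58) had an unadjusted p under 0.05 as well.

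Among 27 tested regulators of glycolytic genes, 0 passed the adjusted edgeR threshold in any comparison. The clearest values were those of Arrdc4, an arrestin-domain gene known as a glucose-responsive target of the MondoA and Mlx factors. Arrdc4 had 20.8, 20.4 and 23.2 CPM in stimulated libraries, 7.31, 8.97 and 11.7 CPM in SUI libraries and 28.8, 20.0 and 16.2 CPM in blank libraries. SUI libraries lay below all others. The log2 fold change was 1.20 ± 0.26 in stimulated over SUI muscle (adjusted p = 0.274, edgeR) and -1.21 ± 0.26 in SUI over blank muscle (adjusted p = 0.34, edgeR). Without SUI replicate 1 and blank replicate 1 these were 1.05 and -0.81. DESeq2 gave adjusted p values of 0.00974 and 0.00629, the lowest of 20 alternatives each, which ran up to 0.754 and 0.659. Mlx itself, the partner of MondoA, had 15.5, 14.0 and 16.3 CPM in stimulated against 26.1, 20.2 and 17.9 CPM in SUI libraries, a log2 fold change of -0.49 ± 0.19 (adjusted p = 0.553, edgeR) that was -0.32 without both libraries. Eya1, a transcription cofactor known for its part in fast glycolytic fibres, had 10.9, 12.5 and 5.59 CPM in SUI against 46.3, 15.7 and 16.3 CPM in blank libraries, where blank replicate 1 was the highest. Its log2 fold change in SUI over blank muscle was -1.43 ± 0.45 (adjusted p = 0.524, edgeR), and -0.82 without both libraries. Hif3a in stimulated over SUI muscle (-1.22 ± 0.53, adjusted p = 0.604, edgeR) was the other regulator with an unadjusted p under 0.05. It was named after its values were seen and averaged under 1 CPM, a low level.

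Of 16 hypoxia targets outside glycolysis, 0 passed the adjusted edgeR threshold, and 6 estimates were above 0 in stimulated against SUI, 5 in stimulated against blank and 7 in SUI against blank muscle (7, 7 and 9 without SUI replicate 1 and blank replicate 1). Angptl4, an inhibitor of lipoprotein lipase, had 1.74, 1.15 and 2.28 CPM in stimulated libraries, 18.3, 12.1 and 4.11 CPM in SUI libraries and 0.503, 3.96 and 3.66 CPM in blank libraries. SUI libraries lay above all others, with log2 fold changes of -2.74 ± 0.73 in stimulated over SUI (adjusted p = 0.423, edgeR) and 2.06 ± 0.71 in SUI over blank muscle (adjusted p = 0.549, edgeR). Without SUI replicate 1 and blank replicate 1 they were -2.23 and 1.09. Kdm3a, a histone demethylase, had 24.4, 18.4 and 20.6 CPM in stimulated libraries against 36.5, 28.8 and 33.8 CPM in SUI libraries, a log2 fold change of -0.65 ± 0.18 (adjusted p = 0.425, edgeR). DESeq2 gave adjusted p values of 0.00781 for Angptl4 and 0.0388 for Kdm3a in stimulated over SUI muscle, the lowest of 20 alternatives each, which ran up to 1.0. Adm, a vasodilator peptide, had 20.7, 12.4 and 8.23 CPM in SUI libraries against 5.45, 6.31 and 8.86 CPM in blank libraries, and Higd1a, a mitochondrial protein, had 15.3, 22.9 and 19.0 CPM in SUI libraries against 60.8, 21.8 and 21.3 CPM in blank libraries. In SUI over blank muscle the log2 fold change of Adm was 1.00 ± 0.37 and that of Higd1a -0.86 ± 0.38 (adjusted p = 0.552 and 0.607, edgeR). Without SUI replicate 1 and blank replicate 1 they were 0.45 and -0.04.

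By the Pearson correlation of log2 CPM with the mean standardised profile of the 6 members over the 9 libraries, the most similar genes were Nme6 (r = 0.987), Slc38a3 (0.981), Mrpl19 (0.979), Mrps14 (0.978), Hras (0.977), Ramp3 (0.976), Gramd1a (0.976), Fastk (0.974), Gapdhl3 (0.972) and Tor3a (0.972). These are descriptions over 9 libraries that differ in depth and in their share of mitochondrial counts, and each library's depth is common to all its genes. Slc38a3, a glutamine transporter, had 170, 90.1 and 160 CPM in stimulated libraries, 25.7, 160 and 200 CPM in SUI libraries and 33.9, 75.3 and 117 CPM in blank libraries, and so dipped in the same 2 libraries as the members. When SUI replicate 1 or blank replicate 1 was left out, 2 of these 10 genes stayed among the 10 most similar. The members' own correlations with their mean profile ran from 0.961 for Pgk1, 0.949 for Eno3 and 0.943 for Pgam2 through 0.888 for Pfkm and 0.886 for Pygm to 0.585 for Hk2. Each member is part of that profile, which raises its own correlation.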

How the data were processed

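Total RNA of pubococcygeus muscle was sequenced from 3 libraries per group. The deposited tables give expected counts per gene as whole numbers and FPKM; per the submitters' processing notes, reads were handled with Bowtie2, RSEM 1.3.1 and DESeq2 1.4.5 on mRatBN7.2. No source used here states the strand setting. The deposited expected counts were filtered with filterByExpr and scaled by TMM, and all 9 libraries were fitted in edgeR 4.0.16 (R 4.3.3) by the robust quasi-likelihood F test, with Benjamini-Hochberg adjustment over 16256 genes at 0.05. A standard error is the size of the log2 fold change over the square root of F. The code of the fit was run on simulated data with 200 changed genes, in which no library stood apart from its group. That run did not measure the power to detect fold changes of the size seen here. Alternatives used DESeq2 1.42.0, limma 3.58.1 on log2(FPKM + 1) or log2(FPKM + 0.1), other scalings and filters, a replicate block and left-out libraries. Nothing says that libraries came from separate animals, so p-values measure the spread between libraries.

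The members and lists were chosen with earlier results of these data known. From each list, genes past the threshold could be named, and up to 4 per comparison with the smallest unadjusted p and a mean of at least 1 CPM. The text gives most of those with an unadjusted p under 0.05, Pdk4 and 2 other enzyme forms. Slc16a7, Slc2a10 and Hif3a averaged under 1 CPM and were added after their values were seen. A gene of the lists is not reported here. The 10 genes most like the members by correlation were also named. FPKM rather than counts, as deposited by the authors, was used to compare genes. Promoter sequences came from RefSeq GRCr8.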

Additional observations from a re-analysis of the deposited data

How the results depend on the processing

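Across 20 alternatives to the settings above, 360 fold changes of the 6 members were refitted: 0 passed the adjusted threshold, with 0.491 the lowest adjusted p, and 15 had another sign. The number of genes called depended on the tool. In stimulated over SUI muscle (2 genes called by edgeR) it was 208 with DESeq2, 1 with library totals, 1 with replicate number as a block, and 0 with limma on log2(FPKM + 1) or log2(FPKM + 0.1), with the 6 libraries compared, and with blank replicate 1 and SUI replicate 1 both left out (an alternative chosen after seeing the data). In stimulated over blank muscle (1 gene) it was 21 with DESeq2 and 0 with limma on log2(FPKM + 1), with 6 libraries, with the replicate block, and without both libraries, and in SUI over blank muscle (0 genes) it was 176 with DESeq2. Leaving out 1 library at a time gave 0 to 3, 0 to 1 and 0 to 1 genes in these comparisons. Same-numbered libraries did not deviate together (r from -0.22 to 0.11 over 9 pairs, 1 over 0.1), so the labels' numbers were not read as pairs, and the replicate block changed no call of a member. Scaling by library totals moved the median of all genes to -0.11, 0.09 and 0.20 on the log2 scale in stimulated over SUI, stimulated over blank and SUI over blank muscle, against 0.03, 0.04 and 0.01 with TMM.

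Several estimates changed sign, among them Pgam2 (0.30) and Hk2 (-0.29) in SUI over blank muscle, and the cause was not tested. With blank replicate 1 and SUI replicate 1 both left out, stimulated over SUI muscle gave Pgk1 -0.069, Eno3 -0.032, LOC103691235 -0.078, Gapdhl3 -0.070, Pkml1 -0.055 and Tpi1l2 -0.159, stimulated over blank muscle gave Pfkm -0.081, and SUI over blank muscle gave Hk2 0.076 and Ldhal1 0.014. For Ldhal1 in SUI over blank muscle library totals gave 0.019 and limma 0.118 with either pseudocount. For LOC103691235 in stimulated over SUI muscle library totals gave -0.015 and limma -0.027 with either pseudocount. Leaving out 1 library at a time, the estimates in stimulated over SUI muscle ran from -0.209 to 0.022 for Pfkm, -0.06 to 0.35 for Pgk1, -0.023 to 0.531 for Eno3, -0.201 to 0.089 for Pygm, -0.07 to 0.24 for LOC103691235, -0.062 to 0.270 for Gapdhl3, -0.047 to 0.337 for Pkml1 and -0.15 to 0.40 for Tpi1l2. In stimulated over blank muscle they ran from -0.10 to 0.13 for Pfkm. In SUI over blank muscle they ran from -0.011 to 0.248 for Pfkm, -0.021 to 0.598 for Pgam2, -0.041 to 0.296 for Gapdhl3, -0.10 to 0.28 for Pkml1, -0.29 to 0.19 for Ldhal1 and -0.037 to 0.502 for Tpi1l2. The members' median stayed above 0 under every alternative in stimulated over blank muscle (0.25 to 0.42) and in SUI over blank muscle (0.03 to 0.44), and ran from -0.05 to 0.44 in stimulated over SUI muscle. Of the 10 genes most similar to the members, 2 to 10 stayed among the first 10 when 1 library was left out. Counts of 3 in a library correspond to 0.021 to 0.0794 CPM, far under every member in every library.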
